A study of Capra hircus with 3 samples.

Results

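miR-320a was followed in the skin of the Shanbei White cashmere goat, a Chinese breed kept for its fine under hair, at the anagen (growth), catagen (regression) and telogen (rest) stages of the hair follicle (HF) cycle. Its members were the tags, that is the distinct sequences left after identical clean reads were collapsed, that share their first 18 nt with a tag annotated to a bovine miR-320a precursor in the supplement of the study, together with tags whose 5′ end is shifted by 1 to 3 bases. This rule uses the sequence of a tag and not its level. It found 1677 of the 4043974 distinct tags in the 3 libraries, and 866 of them were read in the anagen library, 950 in the catagen library and 1136 in the telogen library. Each stage was measured in 1 library of small RNA, made from the mixed side-of-body skin of 10 adult goats of both sexes, so no stage has a biological replicate and every p-value below compares libraries, not stages. No treatment or modified allele is given for any group. Whole skin was used, so that the growing follicle, the rest of the skin and what lies under it were read together, and fewer cells of a type and less RNA per cell cannot be told apart. The anagen library held 15997828 clean reads, the catagen library 18111912 and the telogen library 27016012, and levels are given as reads per 1000000 clean reads (TPM).

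Most animal miRNA precursors are cut out of a long transcript by the nuclear enzyme Drosha and then cut again by Dicer. The precursor of miR-320a is known to skip the first cut: transcription starts at the 5′ end of the hairpin itself, the hairpin carries the cap of a messenger RNA, it leaves the nucleus through exportin 1, and Dicer then releases the mature strand from the 3′ arm, while the 5′ arm keeps the cap. The 5′ end of the mature strand is therefore made by Dicer, and it sets the seed (bases 2 to 8), through which a miRNA pairs with its targets. The 3′ end of the mature strand is a place where enzymes of the cell can add uridine or adenosine. The libraries hold no sample lacking Drosha, so the route itself was not measured here, only the ends and the amount of its product. In the RefSeq gene table of the goat (ARS1.2), 1 gene is named MIR320, and its neighbours are PHYHIP and POLR3D, the latter a subunit of RNA polymerase III.

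The 8 tags listed for miR-320a precursors overlap, and joined into 1 sequence of 31 nt. It holds the most-read tag, 22 nt long and called the mature form below, with 5 bases before it and 4 further A after it. The tag sequences below are cDNA, with T for the U of the RNA. The most-read tag at each 5′ start with at least 10 reads is shown first because the 5′ end decides the seed, which is in capitals, and starts are counted in bases from the mature start.
mature start, 22 nt: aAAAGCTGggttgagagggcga
start 1 base earlier, 23 nt: gAAAAGCTgggttgagagggcga
start 1 base later, 21 nt: aAAGCTGGgttgagagggcga
start 2 bases later, 22 nt: aAGCTGGGttgagagggcgaat
start 3 bases later, 19 nt: aGCTGGGTtgagagggcga

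The other 7 of the 8 most-read tags all begin at the mature start and differ in the 3′ end. They are shown with the bases that leave the joined sequence in capitals, and those with no capitals follow it.
mature plus T: aaaagctgggttgagagggcgaT
mature plus A: aaaagctgggttgagagggcgaa
mature plus AT: aaaagctgggttgagagggcgaaT
mature plus TT: aaaagctgggttgagagggcgaTT
end at base 21 plus T: aaaagctgggttgagagggcgT
end at base 21: aaaagctgggttgagagggcg
mature plus AA: aaaagctgggttgagagggcgaaa

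miR-320a was among the abundant small RNAs of the skin in each library. Its tags took 102758 reads of the anagen library, 134517 of the catagen library and 165140 of the telogen library. The level was thus 6423 TPM for anagen, 7427 for catagen and 6113 for telogen. Ranks were taken over groups of tags with the same first 18 nt (families). There miR-320a counts with its mature start alone, at 5919, 6880 and 5657 TPM. Over all families its rank was 9, 10 and 9 in this order of stages, and among the 301 families of the shortened miRNA list 6, 7 and 7. That list gives only a rarely read sequence for some abundant miRNAs, let-7g among them, so miR-320a may stand further down among all miRNAs. On the paper's own counts miR-320a was at place 10 in each stage. For scale, the family of let-7a, which let-7c shares, was the most-read of the list of abundant miRNAs, at 156299, 118296 and 110799 TPM in the same order. The muscle miRNA miR-1 was below miR-320a in anagen, at 3894 TPM, and above it in catagen, at 73813 TPM, and in telogen, at 19996 TPM. On the paper's own counts the order in anagen was the reverse, with the muscle miRNA above miR-320a. The paper's anagen count for miR-320a, 55595, equals the reads that follow the joined sequence to their last base. With both grouped by the first 18 nt, whatever their 3′ end, miR-320a had 94685 anagen reads and the muscle miRNA 62290. The order in anagen thus depended on which tags were counted.

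The level was highest in catagen, lower in anagen and lowest in telogen, and the highest value was 1.22 times the lowest. The log2 ratio of anagen over catagen was -0.21, with an exact 95% interval of -0.22 to -0.20 that covers counting error alone (exact Audic-Claverie test, p = 1.56e-270). For anagen over telogen it was 0.07, from 0.06 to 0.08 (exact Audic-Claverie test, p = 1.41e-35). For catagen over telogen it was 0.28, from 0.27 to 0.29, with a p too small to compute. At this depth counting error is so small that the 3 libraries differ beyond it in every pair, but no pair reached the call used in the study, an absolute log2 ratio above 1 with p under 0.01. That call was made for 35.6% of the 19008 families tested in anagen over catagen, 34.6% of 19640 in anagen over telogen and 27.3% of 18459 in catagen over telogen. The median log2 ratio over the families tested was -0.02, -0.29 and -0.24 in the same pairs. Families that reached 1000 reads in each library of a pair were also compared, and 21.6% of 1116 had a ratio as close to 0 as that of miR-320a or closer in anagen over catagen, 8.90% of 1269 in anagen over telogen and 40.1% of 1379 in catagen over telogen.

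With 1 pool per stage the spread between goats is unknown. If a coefficient of variation of 0.1 between pools is assumed, edgeR's exact test gave p = 0.306, 0.726 and 0.169 for the pairs in the order above. The place of telogen depended on the scaling: relative to the reads of the listed miRNA families, the log2 ratio was -0.24 for anagen over telogen and -0.012 for catagen over telogen.

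Of all families tested, 35.6%, 34.6% and 27.3% passed the call in the pairs in the order above. The muscle markers miR-1, miR-206 and miR-133a/b differed between the libraries, and all 4 listed passed the call in every pair, miR-133a and miR-133b as 1 family of tags. Their summed level was 4100 TPM for anagen, 78534 for catagen and 21326 for telogen, and without these families in the total the ratio of anagen over catagen for miR-320a was -0.32 on the log2 scale, that of anagen over telogen 0.05 and that of catagen over telogen 0.37. The epithelial markers had a sequence for 4 of 5 miRNAs, all with reads, and summed to 1033, 1840 and 1912 TPM, of which miR-205 held 990, 1790 and 1863. For miR-200b and miR-200c that sequence was the minor 5′ arm, so their main strands are not in the sum. miR-203, the defining miRNA of the suprabasal epidermis, had no listed sequence here and was not analysed. The red blood cell list (miR-451, miR-144, miR-486) summed to 1298, 2118 and 875 TPM, the fibroblast list to 10158, 18216 and 14136 (in effect miR-199a, since miR-214 was held as its minor arm), the leukocyte list (miR-223, miR-142) to 68.7, 72.6 and 126, and miR-122, abundant in liver and present in serum, was at 24.8, 1.99 and 1.22 TPM. The members of the red blood cell list did not move together. miR-451 was at 861, 1265 and 431 TPM, miR-144 at 104, 76.4 and 7.18, and miR-486 at 333, 777 and 437. Of the leukocyte list, miR-223 was at 7.69, 12.1 and 49.4 TPM and miR-142 at 61.0, 60.5 and 76.4. Leaving the muscle families out of the total changes the scaling alone and not the reads of miR-320a. The part of any of these differences in the level of miR-320a was thus not tested.

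**Figure D1:**
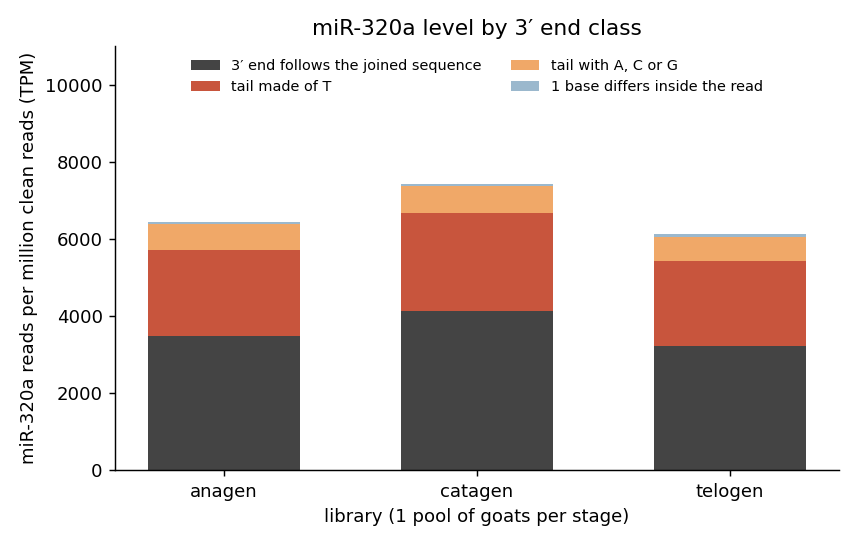
Level of miR-320a in reads per 1000000 clean reads (TPM) in the anagen, catagen and telogen libraries, 1 pooled library each, stacked by whether the 3′ end follows the joined sequence, leaves it with a tail of T alone, leaves it with a tail that holds A, C or G, or differs from it by 1 base inside the read. The last class also holds 11, 7 and 13 reads that run past the end of the joined sequence. The bars reach 6423, 7427 and 6113 TPM, and reads that follow the joined sequence are the largest class in each.

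The 5′ end of miR-320a was uniform, but less so than that of most miRNAs. The mature start held 92.1% of the anagen reads (Wilson 95% interval 92.0 to 92.3), 92.6% of the catagen reads (92.5 to 92.8) and 92.5% of the telogen reads (92.4 to 92.7). A start 1 base later held 6.13%, 5.71% and 5.71%, or 6299, 7679 and 9422 reads. A start 1 base earlier held 1.05%, 1.12% and 1.18%, and a start 2 bases later 0.674%, 0.535% and 0.561%. All other starts together were rare, with at most 8 reads for any of them in a library. The later starts thus outnumbered the earlier ones in every library. Starts of 3 to 5 bases later are undercounted, since reads under 18 nt were removed, and 3 starts more than 5 bases before the mature start could not be read from the joined sequence.

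Each of these starts gives the miRNA another seed. The seed was AAAGCTG for the mature start, AAGCTGG for the start 1 base later, AAAAGCT for the start 1 base earlier and AGCTGGG for the start 2 bases later. None of these 4 seeds stood at the same place in any of the 301 listed miRNA families, a list that is shortened in the copy used here. Names that begin with miR-320 were left out of this search, so relatives of miR-320a were not looked at. In TPM, the start 1 base later held 394, 424 and 349, which is more than the whole of miR-484 or miR-877 in these libraries.

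The base in front of the mature start was nearly always the one in the joined sequence. Tags 1 base longer at the 5′ end began with G in 1075, 1501 and 1947 reads, against 13, 20 and 60 with A, 13, 19 and 9 with C, and 3, 1 and 1 with T, which the rule does not count as members. Tags that hold all 5 listed bases before the mature start, at any place in the tag, had 2, 2 and 3 reads.

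**Figure D2:**
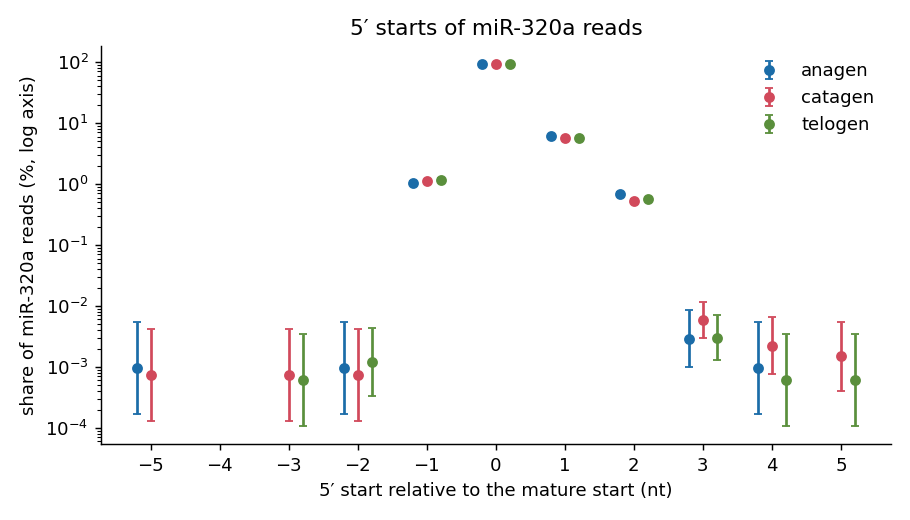
Share of miR-320a reads at each 5′ start, in percent on a log axis, against the distance from the mature start in nt, with Wilson 95% intervals for the anagen, catagen and telogen libraries. The mature start holds 92.1% to 92.6%, the start 1 base later 5.71% to 6.13%, and starts with no reads in a library have no point.

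The share at the mature start was lower in anagen than in the other libraries. The difference of anagen minus catagen was -0.486 percentage points (Newcombe 95% interval -0.702 to -0.270, two-sided Fisher's exact test, adjusted p = 1.26e-05 over 9 comparisons of shares). That of anagen minus telogen was -0.405 points (-0.613 to -0.198, Fisher's exact test, adjusted p = 0.00014). That of catagen minus telogen was 0.0804 points, with an interval of -0.108 to 0.269 and an adjusted p of 0.404 by Fisher's exact test. These differences are small beside the share itself, and the tests cover counting error between libraries alone.

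Counted the same way for every miRNA, as the share of reads within 3 bases of the start of the most-read tag, miR-320a had 92.1%, 92.6% and 92.5% at its main start. The median of 56 listed miRNA families with at least 1000 reads in each library was 99.4%, 99.6% and 99.7%, and miR-320a was below 46, 47 and 46 of these families. In the share that began later than the main start, 6.80%, 6.25% and 6.27%, it was above 50 of the 56 in each library. The 3 let-7 miRNAs in the list had 99.7% to 99.9% at their main start. The families were not split by hairpin arm, so starts made by Drosha and starts made by Dicer are mixed here. A link between the start and the route was not tested. miR-101 lay at the other extreme of the list, with 58.0%, 56.3% and 54.9% and most of the rest starting earlier, and miR-199a held 78.7%, 77.6% and 76.4%. miR-484, the other miRNA of the lists known to come from a capped precursor, had 96.7%, 99.8% and 99.0% at its main start, of far fewer reads. The start of miR-320a was thus neither the most nor the least uniform in the list.

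Where miR-320a ended varied much more than where it began. A single tag, the mature form, held 32.3%, 35.2% and 30.9% of its reads in anagen, catagen and telogen, and the 8 most-read tags together held 76.2%, 78.7% and 76.4%. By length, 40.2%, 42.7% and 38.7% were 22 nt, 33.1%, 30.6% and 32.4% were 23 nt, and 15.5%, 16.5% and 17.7% were 24 nt. The 511 tags read in all 3 libraries held 99.5% of all its reads. The other tags were thinly read, and the 913 found in 1 library had at most 6 reads each.

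A tag was traced along the joined sequence base by base until it no longer matched, and its last matching base was taken as its end. Base 22 was the end for 60.1%, 61.2% and 58.1% of reads, again in the order of the stages. Base 23 was the end for 20.8%, 21.1% and 21.8%, and base 21 for 12.8%, 12.7% and 13.2%. The joined sequence goes on with A from base 22 onward, so an A added after the mature form and an A of the precursor are the same letter, and the 2 cannot be told apart. Of all reads, 54.1%, 55.6% and 52.9% followed the joined sequence to their last base.

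The rest mostly ended in T that the joined sequence does not hold. No goat hairpin or genome sequence was used, so whether such a T was added or belongs to a precursor was not tested. Reads with a tail, that is with 1 or more last bases that leave the joined sequence, made up 45.1% (44.8 to 45.4) for anagen, 43.7% (43.5 to 44.0) for catagen and 46.2% (46.0 to 46.4) for telogen. The tail was made of T alone in 76.8%, 78.4% and 77.4% of them, of A alone in 1.54%, 1.29% and 1.50%, of A and T in 11.8%, 10.9% and 11.3%, and held C or G in 9.85%, 9.41% and 9.83%. By this rule an A added where the joined sequence goes on with A is not counted as a tail. The mature form plus A, counted as following the joined sequence, held 12.9%, 12.3% and 12.9% of all miR-320a reads. The shares of tails made of A or T thus do not show how often each base was added. A single T was the commonest tail and stood at the end of 25.1%, 25.1% and 25.9% of all miR-320a reads. TT followed with 6.87%, 6.54% and 6.99%, and TTT with 2.24%, 2.24% and 2.36%. For comparison, a single C or G as the whole tail made up 1.45% to 1.70% of the reads with a tail. A changed base at either of the last 2 positions of a read is counted as a tail by this rule, and at the mature start no base of the first 18 nt was changed in more than 0.342% of reads in any library.

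T tails were not spread evenly over the ends. Reads ending at base 21 carried a tail of T alone in 52.3%, 51.3% and 52.0% of cases. At base 22 the share was 35.8%, 33.0% and 36.4%, at base 23 it was 28.0%, 32.6% and 31.7%, at base 24 it was 21.4%, 23.1% and 20.5%, and at base 25 it was 13.4%, 10.4% and 7.05%. From base 21 to base 25 the share was lower at each further base in every library, although the intervals of bases 22 and 23 overlap in catagen. The ends before base 21 were apart. Base 20 had 1.21%, 1.44% and 1.44%, although 54.4%, 78.5% and 57.4% of its reads had a tail of some kind. Base 19 had 6.39%, 8.33% and 5.79%, with a tail of some kind on 64.1%, 76.5% and 64.9%. Base 18, an end of few reads, had 0.503%, 2.33% and 1.53%. Among starts, T-only tails were on 34.5%, 34.1% and 35.5% of reads at the mature start, 38.3%, 38.2% and 40.7% at the start 1 base later, and 25.8%, 26.6% and 28.3% at the start 1 base earlier.

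**Figure D3:**
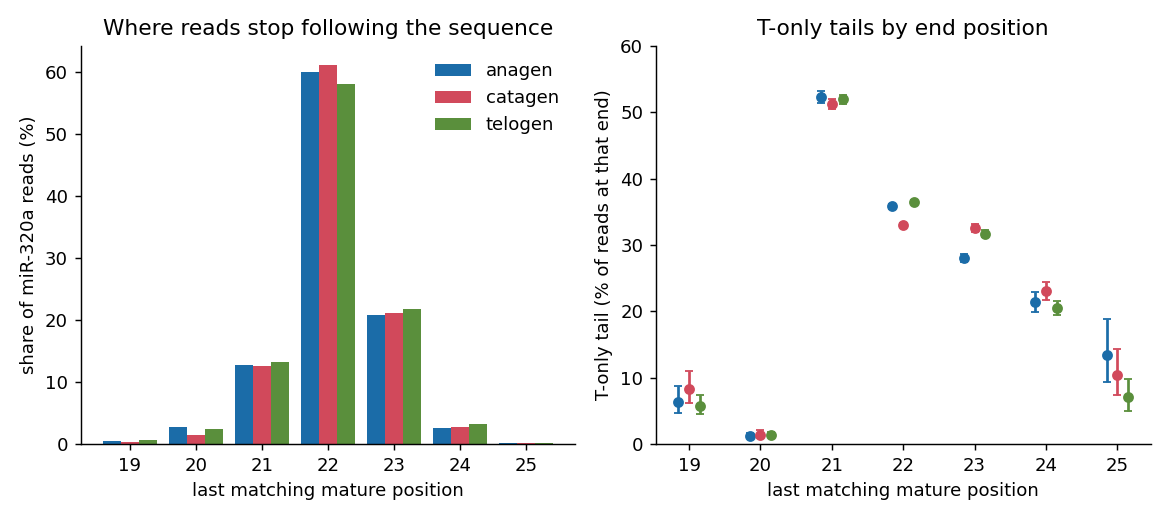
Left, share of miR-320a reads in percent by the last mature position that matches the joined sequence. Right, share of the reads at each such end that carry a tail of T alone, with Wilson 95% intervals, for the anagen, catagen and telogen libraries. Base 22 holds 58.1% to 61.2% of reads, and the T-only share falls from 51.3% to 52.3% at base 21 to 7.05% to 13.4% at base 25. Before base 21 it is low, at 5.79% to 8.33% for base 19 and 1.21% to 1.44% for base 20.

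The 5′ start and the 3′ end moved together. Reads that reached base 22 or beyond were 83.8%, 85.6% and 83.7% at the mature start and 87.1%, 88.2% and 87.6% at the start 1 base later. At the start 1 base earlier they were 51.4%, 49.7% and 47.6%. Reads with the earlier 5′ start thus stopped before base 22 more often than those at the mature start, with intervals that do not overlap in any library.

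The share with a tail was highest in telogen and lowest in catagen, and every pair differed by more than counting error. Anagen minus catagen gave 1.39 points (0.989 to 1.80, Fisher's exact test, adjusted p = 2.49e-11). Anagen minus telogen gave -1.07 points (-1.46 to -0.687, Fisher's exact test, adjusted p = 8.60e-08). Catagen minus telogen gave -2.47 points (-2.82 to -2.11, Fisher's exact test, adjusted p = 4.87e-41). With tails of T alone in place of any tail, the first of these came to 0.384 points with an adjusted p of 0.0578 by Fisher's exact test.

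Compared with other miRNAs, miR-320a stood high in reads longer than its most-read tag. These were 54.8%, 53.0% and 56.4% of the reads at its main start, against a median of 18.6%, 25.4% and 22.6% over the 56 families, and 55, 51 and 53 of these families had a lower share. The most-read tag with 1 further T took 15.8%, 14.5% and 15.1% of those reads, above 51, 48 and 48 of the 56 families. Of the named miRNAs, let-7b was higher for the further T in each library, with 28.2%, 27.2% and 29.0%. For the same T, miR-143 was lower in anagen and higher in catagen and telogen, with 12.3%, 21.3% and 18.6%. miR-484 had 13.7%, 15.4% and 13.5%. miR-451, which is made without Dicer, had 0.247%, 0.319% and 0.275%. No hairpin sequence was used here beyond the joined tags of miR-320a. A further T or A may thus belong to a precursor, and these shares compare lengths and letters only.

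**Figure D4:**
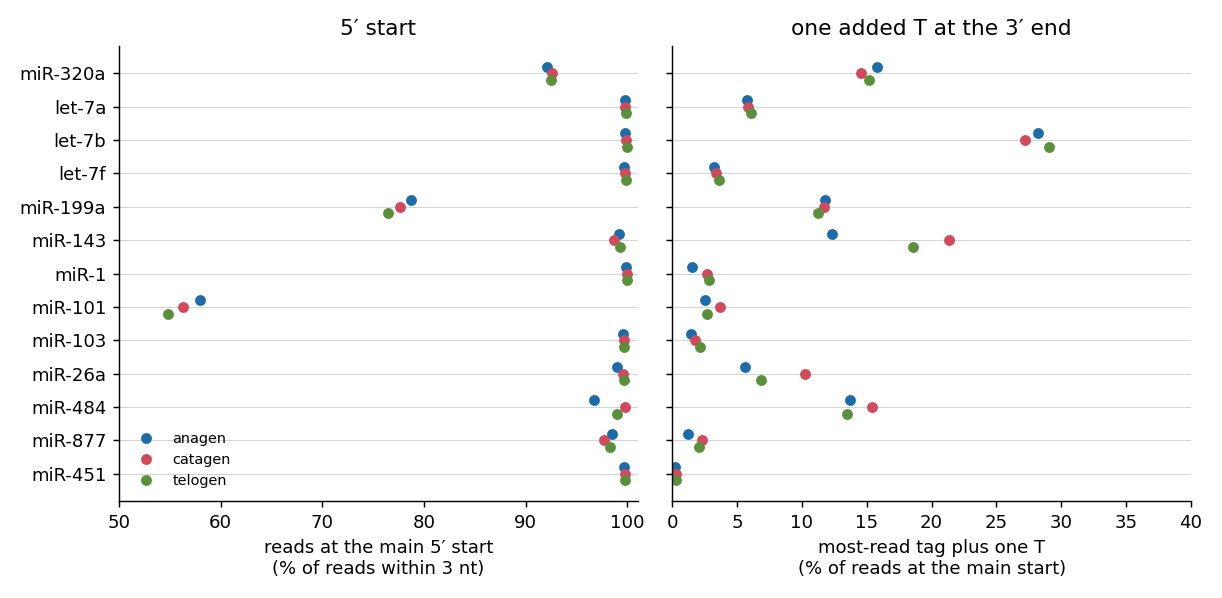
Left, reads at the main 5′ start in percent of reads within 3 nt of it. Right, the most-read tag with 1 further T in percent of reads at the main start. Points are the anagen, catagen and telogen libraries, for miR-320a, the 9 abundant miRNAs of the list and the 3 miRNAs of unusual route with at least 100 reads. miR-320a sits at 92.1% to 92.6% on the left and 14.5% to 15.8% on the right.

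Short reads of miR-320a were few and differed between libraries. Reads of 18 to 20 nt made up 1.68% of the anagen reads (1723), 0.618% of the catagen reads (831) and 1.33% of the telogen reads (2194). The difference was 1.06 points for anagen minus catagen (0.971 to 1.15, Fisher's exact test, adjusted p = 7.17e-134), 0.348 points for anagen minus telogen (0.253 to 0.445, Fisher's exact test, adjusted p = 1.01e-12) and -0.711 points for catagen minus telogen (-0.780 to -0.642, Fisher's exact test, adjusted p = 1.05e-86). Short reads moved in the same way in other miRNAs: among the 56 families, anagen had the highest share of them in 54 and catagen the lowest in 42, and among the 9 abundant miRNAs in 9 and 7. Of all clean reads, 10.6%, 7.58% and 6.29% were of 18 to 20 nt. At the mature start, miR-320a had fewer short reads than 49, 50 and 42 of the 56 families.

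The other arm of the hairpin was not found as a listed sequence. None of the 8 listed tags lay off the main arm. These tags leave out the mature form and hold only 0.171% to 0.274% of the miR-320a reads. They thus cannot show whether the other arm is present. miR-484, miR-1225 and miR-1224, with 1, 1 and 2 listed tags, had none off the main arm either. Each of the 9 abundant miRNAs had at least 1 listed tag off it. The list was the only source of hairpin sequence, and its off-arm tags were rare for most of these too: the most-read such family had 0.000747% to 0.00164% of the reads of the main family for let-7a, and 0.575% to 2.28% for miR-143. As a second look, all tags of 18 to 25 nt were searched for a sequence that can pair with the mature form without gaps over at least 17 bases, with at most 3 mispairs and overhangs of 2 nt, give or take 1. This loose search returned 815 tags, whose 339, 345 and 521 reads came to 0.330%, 0.256% and 0.315% of the miR-320a reads. The most-read of them had 12, 3 and 22 reads. Which of them, if any, comes from the precursor was not determined.

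Other miRNAs of unusual route were far less abundant. miR-484, also from a capped precursor, had 29.7, 28.7 and 40.1 TPM, and miR-877, from a short intron that is spliced rather than cut by Drosha, had 15.9, 19.0 and 24.9 TPM. miR-451, which is abundant in red blood cells and is cut by Ago2 in place of Dicer, had 861, 1265 and 431 TPM. The intronic miR-1224 had 11, 13 and 12 reads. miR-1225 had 2 reads in anagen, 1 in catagen and 0 of 27016012 in telogen, which allows a level of up to 0.111 TPM. miR-1229 had no listed sequence and was not analysed. Of the 3 members with at least 1 TPM, none passed the call in anagen over catagen or in anagen over telogen, and miR-451 was higher in catagen than in telogen, with a log2 ratio of 1.55 (1.52 to 1.58). Over all families tested, the call was made for 35.6%, 34.6% and 27.3% in these pairs, and 3 members are too few to set against those shares. In anagen over telogen, miR-451 lay just short of the limit at 1.00, from 0.96 to 1.03. miR-484 and miR-877 had their highest level in telogen, where miR-320a had its lowest. The log2 ratio of anagen over telogen was -0.43 (-0.59 to -0.28) for miR-484 and -0.65 (-0.87 to -0.44) for miR-877, against 0.07 for miR-320a, with intervals that do not overlap.

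The miRNAs whose levels ran most nearly parallel to miR-320a were chosen by the range, over the 3 libraries, of the log2 difference in TPM from it, among the 56 families. They were miR-1839, with a range of 0.11, miR-452 with 0.14, miR-365 with 0.18, miR-151 with 0.25 and miR-27b, whose first 18 nt miR-27a shares, with 0.38, against a median range of 0.67. miR-1839 was at 921, 1137 and 867 TPM, and miR-365 at 324, 425 and 323 TPM. With 3 libraries, this likeness is a description.

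Reads that differ from the mature form at 1 of the first 18 bases are not members but were counted beside them. There were 1229, 827 and 1675 of them, or 1.30%, 0.664% and 1.10% of the reads at the mature start. Telogen had a peak at base 5, where 0.342% of reads were changed, against 0.0739% in anagen and 0.0594% in catagen. The median over the 56 families had the same peak, at 0.351% in telogen. Anagen had peaks at base 16, with 0.263%, and base 6, with 0.200%, where the median of the families was 0.131% and 0.0964%. The changes behind these peaks were mostly G5A in telogen, with 349 reads against 17 and 10 in anagen and catagen, A16C in anagen, with 225 reads against 5 and 14, and C6T in anagen, with 185 reads against 97 and 109. Here the base of the mature form comes first, and positions are counted from 1 at its 5′ end.

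**Figure D5:**
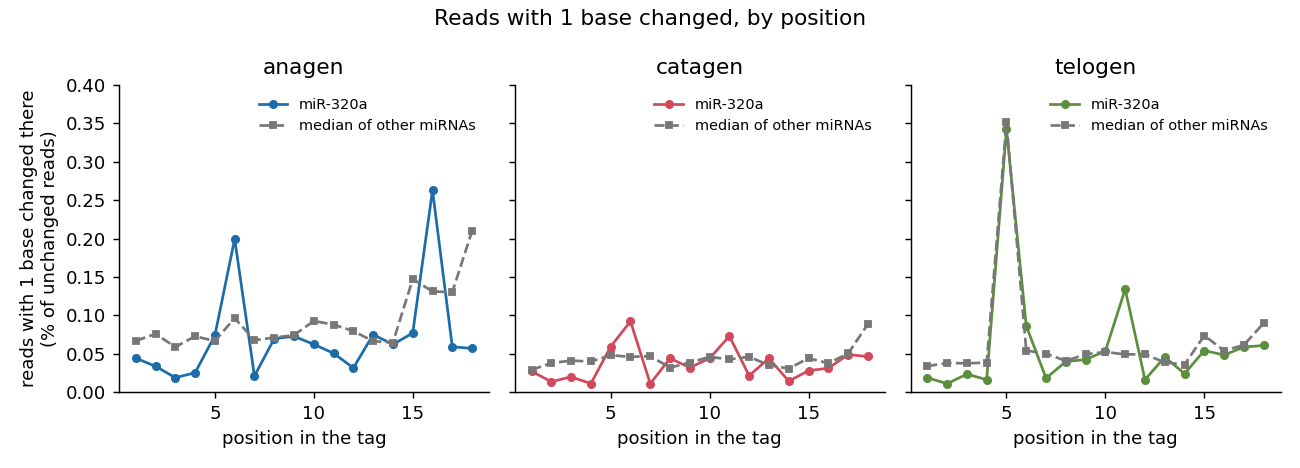
Reads that differ from the mature form of miR-320a by 1 base, in percent of the unchanged reads, by position in the tag, in the anagen, catagen and telogen libraries. Grey squares are the median over 56 other miRNA families. In telogen both lines peak at position 5, at 0.342% for miR-320a and 0.351% for the median, and in anagen miR-320a has its highest value at position 16, at 0.263%.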

How the data were processed

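Total RNA was size-selected at 18 to 30 nt, ligated to adaptors and sequenced by Solexa. The authors removed low-quality and adaptor reads and reads under 18 nt and deposited, for each library, each distinct tag with its length and its count of reads, without normalisation. The sum of counts equalled the clean reads in the deposited filtering record in all 3 libraries. No aligner or genome build enters these values. For this filtering step, program versions are not given in the sources used here.

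Tags were grouped by their first 18 nt, which some miRNAs share (let-7a with let-7c, miR-103 with miR-107, miR-199a with miR-199c). miRNA sequences came from the supplement of the study, which is shortened in the copy used, and the 8 tags of miR-320a were joined over at least 14 bases. Levels were scaled to clean reads, families under 1 TPM in both libraries of a pair were left out, and 0 was set to 0.01 TPM. Two-sided exact Audic-Claverie tests were run over all families. Intervals of ratios are exact (Clopper-Pearson), those of shares Wilson, and those of differences of shares Newcombe. All are 95% intervals that cover counting error only, since PCR reads without molecular identifiers are not independent molecules. Shares were compared by Fisher's exact test, with Benjamini-Hochberg adjustment over 9 comparisons and a threshold of 0.01. A quasi-likelihood model needs replicates, which the stages lack, so edgeR's exact test with an assumed coefficient of variation of 0.1 or 0.4 and TMM scaling were alternatives.

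The tags named are the 8 with the highest mean TPM and the most-read tag at each other 5′ start with at least 10 reads in all, with fixed lists of abundant, unusual-route and cell type miRNAs and the 5 families most like miR-320a. The measures over 56 families, the base changes by position and 3 alternatives were added after seeing the data. The members and lists were chosen with earlier results of these data known. The scripts were tested on simulated data. Python 3.11.15, numpy 2.4.6, scipy 1.17.1, R 4.3.3 and edgeR 4.0.16 were used.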

Additional observations from a re-analysis of the deposited data

How the results depend on the processing

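The log2 ratio of miR-320a stayed short of the call under all 15 alternatives for each pair. It ranged from -0.50 to -0.16 for anagen over catagen, from -0.61 to 0.35 for anagen over telogen and from -0.11 to 0.50 for catagen over telogen. The sign turned in both pairs with telogen under 2 alternatives. With only the listed tags, which hold 0.171% to 0.274% of the reads, it was -0.61 for anagen over telogen and -0.11 for catagen over telogen. Scaled to the reads of listed miRNA families, chosen after seeing the data, it was -0.24 and -0.012. TMM factors moved the median of all families by 0.27 in anagen over telogen and by 0.22 in catagen over telogen, and the values for miR-320a moved with it to 0.35 and 0.50. An assumed coefficient of variation of 0.4 gave p = 0.801, 0.932 and 0.736 in edgeR's exact test, and lowered the families called to 1760, 1940 and 1093 from 6772, 6793 and 5046. Without the minimum of 1 TPM they were 10785, 12260 and 8950.

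Counting distinct tags in place of reads left no difference of shares past the threshold, since it weighs tags read in small numbers as much as the mature form and leaves few units to test (adjusted p = 1 by Fisher's exact test in all 9 comparisons). The share at the mature start was then -0.0591 points for anagen minus catagen and 0.979 for anagen minus telogen. The share of 18 to 20 nt was -0.200, 0.878 and 1.08 points for anagen minus catagen, anagen minus telogen and catagen minus telogen, and the share with a tail -0.803, -0.770 and 0.0334. Tails of T alone, chosen after seeing the data, gave 0.384 points for anagen minus catagen, where the cause of the smaller value was not tested. The alternatives other than distinct tags and T tails kept direction and side of the threshold in 65 of 69 cases, the rest being the 4 reversed levels above. No paired analysis was possible because each stage has 1 library. Depth does not limit the level and the main shares of miR-320a. It does limit what rests on few reads, such as the rare 5′ starts and miR-1225. The number of pools limits all values: nothing here measures the spread between goats.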
